A study of Macaca mulatta with 9 samples.

Results

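The comparison is between 2 doses of TCDD given to the mothers, 300 and 30 ng/kg, read in the prostate of their sons. The animals were rhesus monkeys (Macaca mulatta), 3 per dose. These are 6 of the 9 arrays of the series, chosen by the dose in their labels, and the other 3 arrays are offspring of dams given vehicle, whose values are printed beside the doses without being part of the comparison. Dosing of the dams was subcutaneous, first on gestation day 20 and thereafter at intervals of 30 days with 5% of the first dose, up to day 90 after birth, so exposure was in the womb and through milk. The prostates were taken 7 years after exposure, RNA came from frozen, homogenised tissue, and 0.5 ug was labelled with Cy3 for a 1-colour Agilent array, 1 array per animal. The labels give no strain, litter or exact age of the animals, and they do not say which part of the gland was sampled. The question is whether the higher dose left a different transcript profile from the lower dose in the grown gland, across all 20217 non-control probes, of which 15160 were bright enough to be tested.

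TCDD is the most potent of the dioxins. It binds the aryl hydrocarbon receptor, a transcription factor held in the cytoplasm by chaperones, which then enters the nucleus, pairs with ARNT and switches on genes of foreign-compound metabolism. In rodents, exposure before birth impairs the budding of the prostate from the urogenital sinus, a process that depends on androgens and on signals such as BMPs, WNTs and hedgehog between the mesenchyme and the epithelium. The adult gland consists of secretory luminal cells, which release kallikreins, MSMB and transglutaminase into semen, of basal cells beneath them, and of a stroma rich in smooth muscle.

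The arrays of the doses differed in brightness. The 75th percentile of the signal was 343, 1356 and 363 intensity units in replicates 1, 2 and 3 of 30 ng/kg, and 1258, 1612 and 2374 in those of 300 ng/kg. Replicate 2 of 30 ng/kg was thus as bright as the 300 ng/kg arrays, while both other arrays of its group were the dimmest of the series. Spots well above background made up 63.9%, 79.0% and 67.2% at 30 ng/kg and 79.3%, 81.0% and 83.9% at 300 ng/kg. Slide 3 held all 3 arrays of 300 ng/kg and replicate 3 of 30 ng/kg, and replicates 1 and 2 of 30 ng/kg lay on slide 2 with a vehicle array. Each slide was scanned by itself, so a slide is also a scan. Across probes, which are not independent replicates, replicate 2 of 30 ng/kg correlated at 0.981 with replicate 2 of 300 ng/kg and at 0.952 with replicate 3 of its own group, the lowest value within that group. Its highest correlation, 0.984, was with replicate 2 of vehicle, and vehicle replicate 2 correlated at 0.978 with replicate 2 of 300 ng/kg, so the arrays numbered 2 were more alike across groups than any pair within a group, where the highest value was 0.975. Whether samples were exchanged or mixed was not tested. Differences from replicate 3 of 30 ng/kg, on the same slide as all arrays of 300 ng/kg, and from replicate 2 of 30 ng/kg, the nearest in brightness, are therefore given beside the results, and the part of brightness in a difference was not tested. The tissue label was checked against luminal markers: KLK3 and MSMB, secreted products of the prostate, were far above the 75th percentile on all 9 arrays, by at least 8.05 and 4.88 log2 units. Markers of seminal vesicle, urothelium, T and NK cells, myeloid cells, skeletal muscle and erythrocytes were not analysed here.

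**Figure D1:**
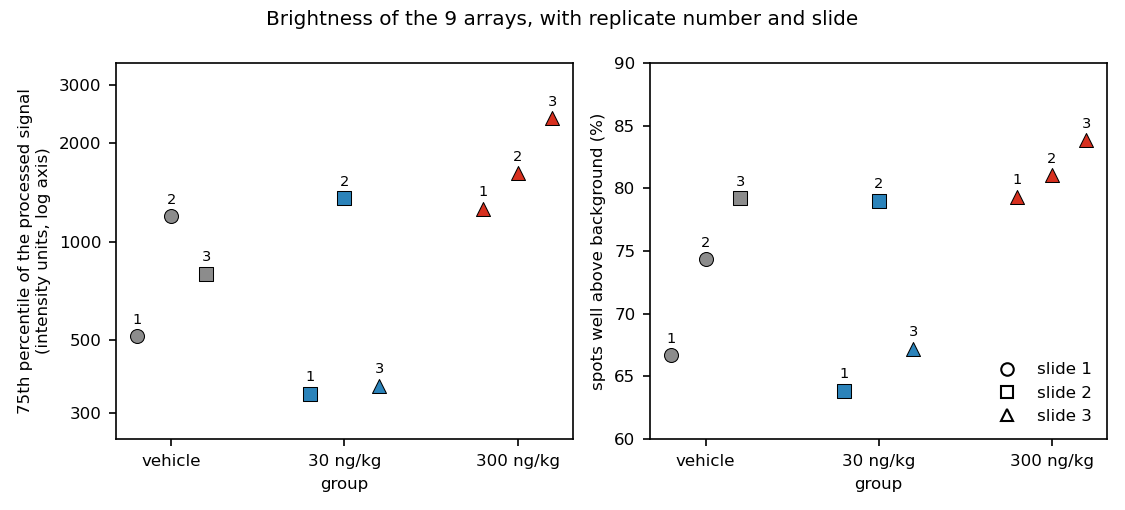
The left panel plots the 75th percentile of the processed signal of each array in intensity units on a log axis, and the right panel the percentage of spots well above background, by group; the number beside a point is the replicate and its shape the slide. Replicate 2 of 30 ng/kg, at 1356 units, lies with the 300 ng/kg arrays (1258 to 2374), while replicates 1 and 3 of 30 ng/kg lie at 343 and 363.

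At 300 ng/kg the secreted transglutaminase TGM4, the class I molecule HLA-B, the developmental regulators IRX4 and ODD, all 6 named and tested chaperones and the BMP antagonist GREM1 with the ID genes read higher than at 30 ng/kg. The secreted protease KLK3, MSMB, the channels TRPM4 and TRPV6 and the glutathione enzymes GGT1 and GSTT1 read lower. So did all 4 named and tested members of the smooth muscle list (FLNC and LMOD1 not relative to the shift of all probes under normexp). None of these differences passed the adjusted test in the fit on all arrays. With limma's moderated test on all 9 arrays, 0 of 15160 probes (0%) had a Benjamini-Hochberg adjusted p under 0.05, and the smallest adjusted p was 0.104, for IRX4. An unadjusted p under 0.05 was reached by 3130 probes (20.6%), 1231 of them higher at 300 ng/kg (8.12%) and 1899 lower (12.5%). The 3 values at 300 ng/kg lay all above or all below the 3 values at 30 ng/kg for 3884 probes (25.6%), above for 1694 (11.2%) and below for 2190 (14.4%). The differences were larger on the lower side: 1690 probes were lower by 2-fold or more and 543 higher, while the median difference of all probes was -0.03 on the log2 scale. This balance depended on the scaling. Quantile normalization gave 1651 higher and 1676 lower probes at an unadjusted p under 0.05, scaling to the median of each array gave 1736 and 1380 with the median of all probes at 0.15, and background correction by normexp, which models the signal as background plus an exponential part, gave 639 and 3820 with that median at -0.52.

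The number of probes that passed changed with single arrays and with their weights. Without replicate 2 of 30 ng/kg, 774 probes had an adjusted p under 0.05, 619 of them lower at 300 ng/kg, and without replicate 2 of 300 ng/kg there were 155, 131 of them higher. These were largely different probes, since 26 were in both sets, 3.36% of the first and 16.8% of the second. With limma's array weights, which count arrays far from their group for less, 2951 probes had an adjusted p under 0.05. Replicate 2 of 30 ng/kg was the array of its group nearest to the other dose at 9780 of the 15160 probes (64.5%) and at 2534 (81.0%) of the 3130 with an unadjusted p under 0.05. For that replicate alone against the 3 arrays of 300 ng/kg, 430 probes had an unadjusted p under 0.05, and with brightness as a covariate 528 did. Within slide 3, with slide as a fixed block, 3647 probes passed the same threshold, 1048 higher and 2599 lower, and 2 had an adjusted p under 0.05. Within slide 3 and against replicate 2 alone, the 30 ng/kg arm is 1 array, which is assumed to vary like the arrays of the other groups.

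**Figure D2:**
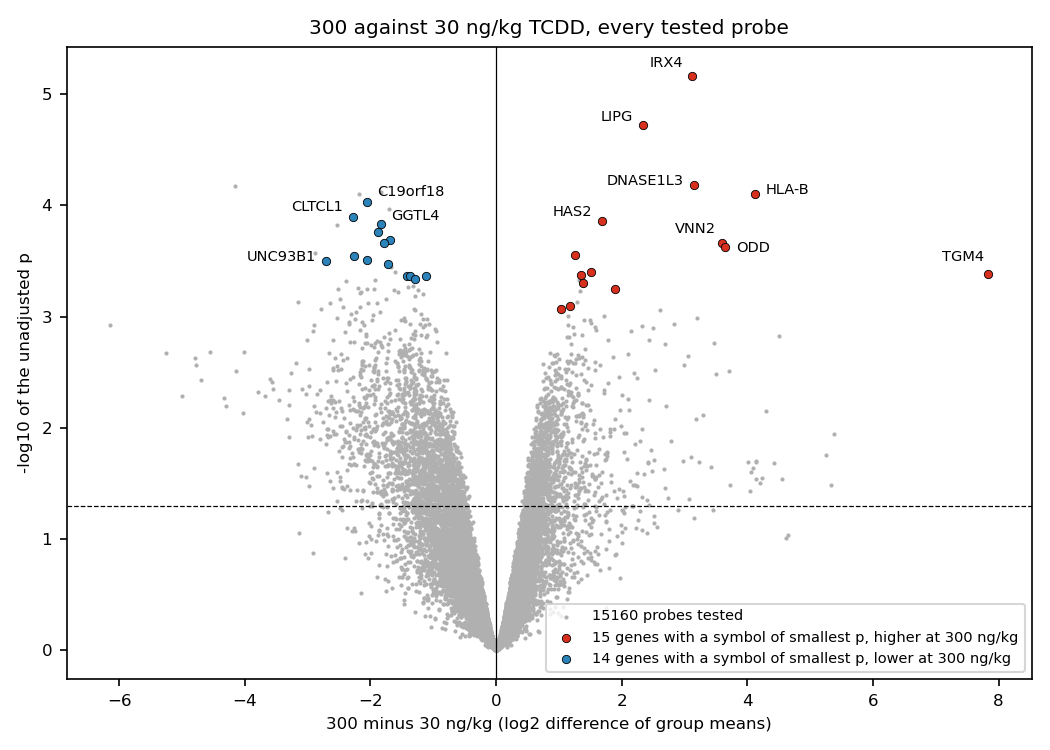
Each grey point is 1 of 15160 tested probes; the x axis is the log2 difference of the group means, 300 minus 30 ng/kg, and the y axis is -log10 of the unadjusted p of the limma fit, with the dashed line at 0.05. Red and blue points are the genes with a symbol of smallest p on each side, 15 higher and 14 lower; TGM4 lies farthest right, at 7.83, and IRX4 highest, and LIPG, HAS2 and GDF10 turned negative with normexp.

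Gene names came only from the authors' deposited table, so 1005 tested genes had a symbol. The authors had chosen that table's probes on these same arrays for a difference from vehicle, and 803 of the 1005 genes (79.9%) had an unadjusted p under 0.05 between the doses, 327 higher (32.5%) and 476 lower (47.4%), against 20.6% of all probes. The groups did not overlap for 79.4% of them. Counts in the gene lists that follow are to be read against these shares, and each list holds only the members that the table names and that were tested; members measured only by probes without a symbol are not counted. The 36 lists hold 1074 genes, 127 of which the table names and 120 were tested. Of these, 100 had an unadjusted p under 0.05, 59 higher and 41 lower, and 0 an adjusted p under 0.05; without replicate 2 of 30 ng/kg 35 had one, and without replicate 2 of 300 ng/kg 19. For 21 of the 120, all arrays of 300 ng/kg but not all of 30 ng/kg were well above background. Of these, 20 stood higher at 300 ng/kg. Through the 300 ng/kg group alone 13 had passed the filter, which favoured a higher reading there. It did not force one, since STS, among the 13, differed by -0.0073. The others of the 13 described below are IRX4, LIPG, HAS2, S100A2, KRT13, ANXA8, FCER1A, OSBPL3, CTSS and MMP23B. Among the 97 that were well above background on all 6 arrays, 83 had an unadjusted p under 0.05, 43 higher and 40 lower. Of the genes described below by a difference, LIPG, HAS2, GDF10, S100A2, ANXA8, FCER1A, GDF5, COMP, VDR, STS, OSBPL3, SLC12A2, IRX1 and AW294925 were well above background on 1 of the 3 arrays of 30 ng/kg, and LTBP2, MMP23B, CRABP2 and CTSS on 2. CLTCL1 and ACVRL1 were so on 2 of the 3 arrays of 300 ng/kg. The sizes of these differences rest in part on values near or below background.

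The gene of smallest p was IRX4, an Iroquois homeobox transcription factor that patterns organs during development. Its probe lay at the floor of -6.10 in all 3 arrays of 30 ng/kg, where a value of 0 is the array's 75th percentile and the floor is 5 intensity units of the dimmest array. At 300 ng/kg it read -3.27, -3.14 and -2.54 in replicates 1, 2 and 3, and in the vehicle arrays -5.91, -4.68 and -5.0. It was not well above background on any array of 30 ng/kg. With its values there raised to the dimmest signal that counted as well above background, the 300 ng/kg group was 4.53-fold higher. The fitted difference had a limma adjusted p of 0.104. Such folds are not strict lower limits, since a probe not well above background can lie above that dimmest signal. With normexp the difference of IRX4 was 0.087 on the log2 scale, 0.61 above the shift of all probes under that setting, so its size depends on the background correction. LIPG, the endothelial lipase, which cleaves phospholipids of high-density lipoprotein, read -6.10, -5.56 and -6.10 at 30 ng/kg, -3.18, -4.14 and -3.42 at 300 ng/kg and -6.10, -6.10 and -6.10 in vehicle. The difference was 2.34 ± 0.29 (log2, 300 minus 30 ng/kg, ± SE of the fit, n = 3 per group, as for every difference that follows; limma adjusted p = 0.144), but normexp turned it to -0.41, which is 0.11 above the shift of all probes under that setting. In both genes, chosen by p on these arrays, the groups did not overlap. Each probe was at or near the floor in all arrays of 30 ng/kg and clearly above it in all of 300 ng/kg. Both had passed the filter on dim probes through the 300 ng/kg group alone, as had DNASE1L3, HAS2 and VNN2 below. In these genes the filter itself favoured a higher reading at 300 ng/kg.

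TGM4, the prostate transglutaminase, which cross-links semen proteins and is made by luminal cells, had the largest difference of all 1005 named genes. It read -3.17, -1.08 and -3.61 at 30 ng/kg and 6.81, 1.42 and 7.41 at 300 ng/kg, with vehicle at -3.89, -4.55 and -2.54. Replicate 2 of each dose lay toward the other dose, and the groups still did not overlap. The difference of 7.83 ± 1.44 corresponds to 228-fold (limma adjusted p = 0.16), and it was 8.83 within slide 3 and 6.29 against replicate 2 of 30 ng/kg alone. Without replicate 2 of 300 ng/kg the difference was 9.73 with an adjusted p of 0.00439, and without replicate 2 of 30 ng/kg 8.60 with 0.0363.

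HLA-B, a class I antigen-presenting molecule, read -3.05, -1.10 and -0.46 at 30 ng/kg, 2.67, 2.18 and 2.91 at 300 ng/kg and 0.45, -0.66 and -0.02 in vehicle. The difference was 4.12 ± 0.61, and 3.04 within slide 3. Macaques carry many near-identical class I genes and differ in them between animals, so the signal of this probe is uncertain as to gene and allele. DNASE1L3, a secreted nuclease that degrades DNA in particles and is made mainly by myeloid cells, read -4.68, -6.10 and -5.52 at 30 ng/kg, where no array was well above background, and -1.63, -2.98 and -2.23 at 300 ng/kg. With dim values raised as for IRX4, that is 7.33-fold, beside vehicle values of -4.58, -5.40 and -4.66. With normexp the log2 difference was 0.49. VNN2, a membrane pantetheinase of leukocytes, was at the floor in all vehicle arrays and read -6.10, -6.10 and -5.88 at 30 ng/kg. At 300 ng/kg its values were -1.93, -4.12 and -1.24, with replicate 2 the lowest of the 3. That is 6.66-fold higher with dim values raised in the same way, and 0.66 on the log2 scale with normexp. No defining myeloid marker was among the named and tested genes, so the presence of such cells was not tested.

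ODD, an odd-skipped zinc finger regulator of mesenchyme in urogenital development, was measured on all 9 arrays. Its values were -2.68, -2.16 and -2.83 at 30 ng/kg, 2.10, -0.62 and 1.81 at 300 ng/kg and -1.45, -1.38 and -1.81 in vehicle. The difference of 3.65 ± 0.62 was 3.93 within slide 3, and without replicate 2 of 300 ng/kg, the lowest of its group, it was 4.51 with an adjusted p of 0.00229, beside 3.85 with 0.0365 without replicate 2 of 30 ng/kg. HAS2, which makes the matrix polymer hyaluronan, read -6.10, -5.58 and -6.03 at 30 ng/kg and -4.60, -3.78 and -4.27 at 300 ng/kg, a difference of 1.69 ± 0.27 that normexp turned to -0.79. GDF10, a secreted factor of the TGF-beta superfamily, read -5.62, -4.60 and -5.83 at 30 ng/kg, -3.54, -3.28 and -3.54 at 300 ng/kg and -4.39, -4.22 and -3.47 in vehicle, and its difference of 1.90 ± 0.36 was -0.54 with normexp. KCNK1, a background potassium channel, differed by 1.51 ± 0.28, from -1.21, -1.73 and -1.61 at 30 ng/kg to 0.17, -0.08 and -0.13 at 300 ng/kg. PER2, a repressor in the circadian clock, read -0.08, 0.48 and -0.05 at 30 ng/kg and 1.46, 1.48 and 1.45 at 300 ng/kg, beside 1.29, 0.65 and 0.77 in vehicle, and the times of day of necropsy are not given in the sources used here. The other genes of this group of 15 were DNAJA1, described with the chaperones, the antioxidant enzyme PRDX6 with a difference of 1.04 ± 0.21, the kinase inhibitor CaMKIINalpha with a difference of 1.18 ± 0.24 and CXorf39 with a difference of 1.39 ± 0.26. The groups did not overlap in any of the 15, which were chosen by p on these same arrays. Among all named genes the share without overlap was 79.4%.

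On the lower side, with each gene taken by its brightest probe, the smallest p among genes with a symbol belonged to C19orf18, at 1.55, 1.03 and 2.07 at 30 ng/kg and -0.34, -0.46 and -0.72 at 300 ng/kg, with vehicle in between at 0.49, -0.02 and 0.69. The difference was -2.06 ± 0.31 (limma adjusted p = 0.16). CLTCL1, a second clathrin heavy chain, read -1.01, -1.46 and -1.18 at 30 ng/kg and -4.16, -3.06 and -3.24 at 300 ng/kg, a difference of -2.27 ± 0.36. TRPM4, a calcium-activated cation channel expressed in prostate epithelium, read 4.20, 3.76 and 4.38 at 30 ng/kg and 2.31, 2.59 and 1.83 at 300 ng/kg, a difference of -1.87 ± 0.31, beside vehicle at 3.70, 3.17 and 2.87. These 3, chosen by p on the same arrays, were lower on every array of 300 ng/kg than on any array of 30 ng/kg.

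UNC93B1, which carries toll-like receptors from the endoplasmic reticulum to endosomes, had the largest difference of the 15 on this side, from 5.69, 4.57 and 5.27 at 30 ng/kg to 3.02, 2.83 and 1.59 at 300 ng/kg, which is -2.70 ± 0.48. NOS2A, the inducible nitric oxide synthase, differed by -1.69 ± 0.28, from -1.88, -1.81 and -2.14 at 30 ng/kg to -3.70, -3.27 and -3.94 at 300 ng/kg. In both genes the lowest array was replicate 3 of 300 ng/kg, the brightest array of the series. FARP1 and TTC21A differed by -2.06 ± 0.36 and -2.26 ± 0.39. GABRE, a GABA A receptor subunit, differed by -1.37 ± 0.25, EME1, a subunit of a DNA repair nuclease, by -1.12 ± 0.21, IGLL1, the surrogate light chain of B cell precursors, by -1.30 ± 0.24, and C6orf108, now named DNPH1, an enzyme that clears modified nucleotides, by -1.73 ± 0.31. For C6orf108 and GABRE the array of 30 ng/kg nearest to 300 ng/kg was replicate 2, and against it alone their differences were -1.15 and -1.06.

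**Figure D3:**
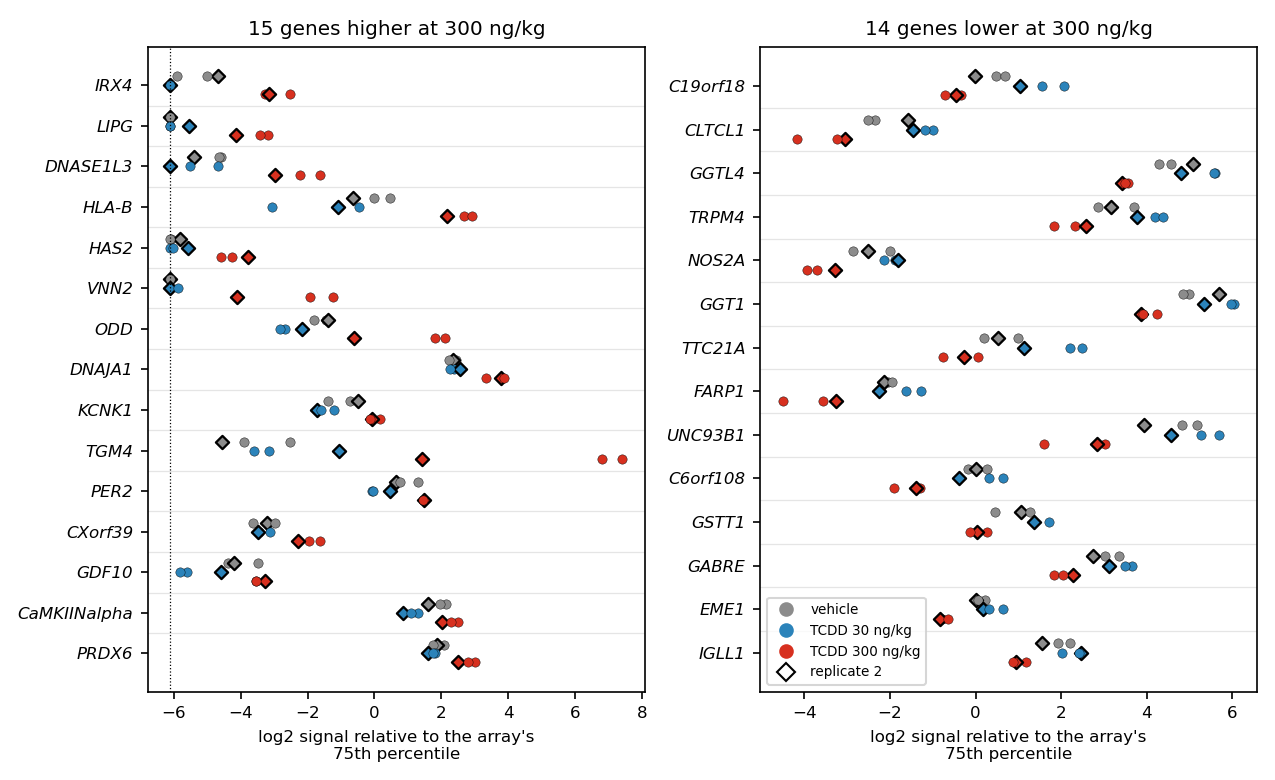
Each row is 1 of 29 genes of smallest p, and points are the log2 signal of single arrays relative to the array's 75th percentile, coloured by group (grey vehicle, blue 30 ng/kg, red 300 ng/kg); diamonds mark replicate 2 of each group and the dotted line is the floor at -6.10. The genes were chosen by p on these arrays, and red and blue points do not overlap in any row. IRX4 lies at the floor in all 30 ng/kg arrays, and LIPG, HAS2 and GDF10 were lower at 300 ng/kg with normexp.

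**Figure D4:**
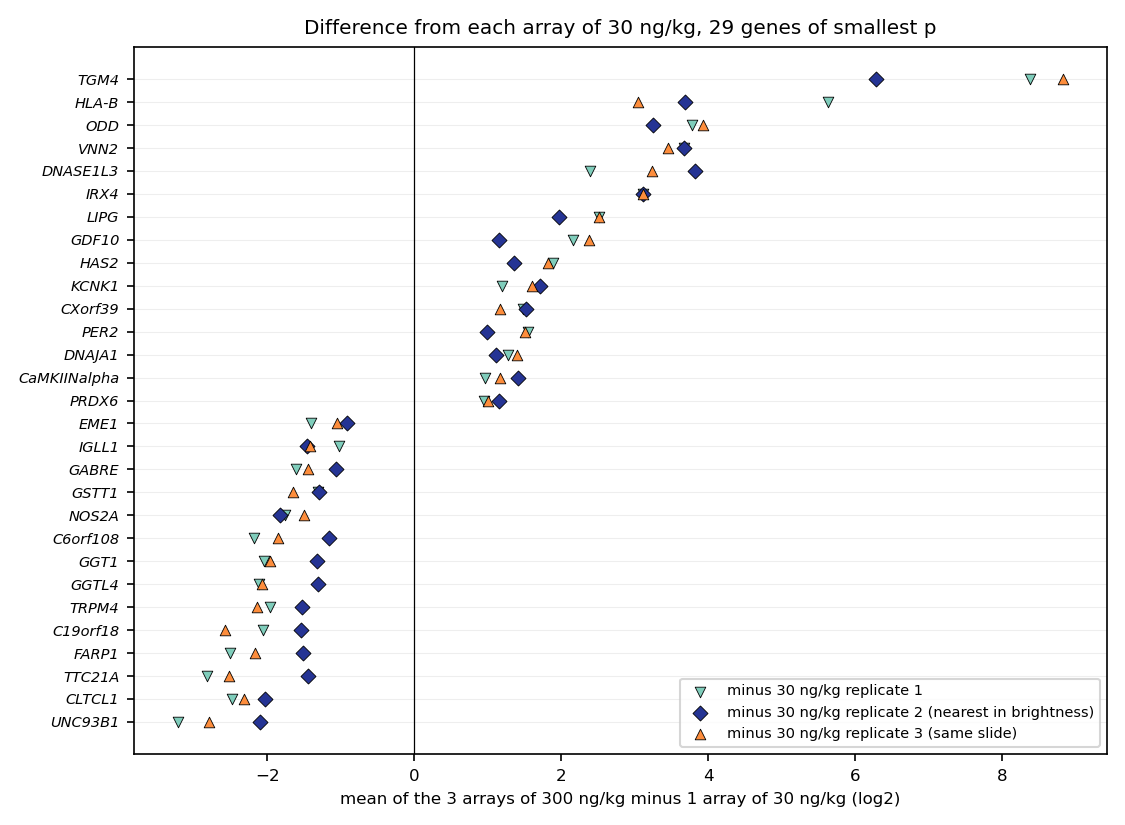
For the same 29 genes, the x axis gives the mean of the 3 arrays of 300 ng/kg minus each single array of 30 ng/kg on the log2 scale: replicate 1, replicate 2 (nearest in brightness) and replicate 3 (same slide). The groups do not overlap in these genes, so every point lies on the side of its gene by construction; LIPG, HAS2 and GDF10 changed side with normexp. Replicate 2 is the point nearest to 0 for 19 of the 29.

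Among probes without a symbol, AW294925 read -5.92, -5.16 and -5.20 at 30 ng/kg and -3.99, -4.24 and -4.07 at 300 ng/kg, a difference of 1.33 ± 0.25, which normexp turned to -0.85. The probe A_01_P018128, which has no description, differed by 1.34 ± 0.26. The 2 of smallest p on the lower side were NM_016458, described by the authors as a brain protein, at 1.47, 0.18 and 0.78 at 30 ng/kg and -3.74, -2.0 and -4.27 at 300 ng/kg, and NM_032854, described as a coronin, an actin-binding protein, at 3.90, 3.07 and 3.99 at 30 ng/kg and 1.70, 1.77 and 0.94 at 300 ng/kg. The first differed by -4.15 ± 0.60 and the second by -2.19 ± 0.32. Both were chosen by p and lay apart between the doses on all 6 arrays.

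The luminal secretory and androgen-regulated list had 5 tested genes of 40, 2 higher, TGM4 and ODC1, and 3 lower at an unadjusted p under 0.05. KLK3 is prostate-specific antigen, a serine protease that liquefies semen. Its brightest probe read 10.84, 8.95 and 10.74 at 30 ng/kg and 8.05, 8.58 and 8.08 at 300 ng/kg. The difference of this probe was -1.94 ± 0.49. It was -2.50 within slide 3, but -0.71 against replicate 2 of 30 ng/kg alone and -0.36 with quantile normalization. That probe was saturated in 10 spots on 6 arrays. These were all 3 arrays of 30 ng/kg, replicates 2 and 3 of 300 ng/kg and replicate 2 of vehicle. A saturated signal is capped, so its scaled value falls as the array's 75th percentile rises. The size of the difference of this probe is therefore uncertain. A second, unsaturated probe read 5.43, 4.61 and 5.89 at 30 ng/kg and 2.85, 3.02 and 2.74 at 300 ng/kg. Its difference was -2.44 ± 0.59. MSMB, a secreted protein of semen, read 6.90, 6.89 and 6.44 at 30 ng/kg and 4.88, 5.39 and 5.43 at 300 ng/kg, a difference of -1.51 ± 0.36, with vehicle at 5.22, 6.64 and 6.02. ZBTB16, a zinc finger repressor induced by steroid hormones, read 9.12, 6.66 and 9.01 at 30 ng/kg, 5.02, 6.21 and 4.53 at 300 ng/kg and 7.09, 6.37 and 7.24 in vehicle. Replicates 1 and 3 of 30 ng/kg lay above all other arrays for ZBTB16, and the difference of -3.01 ± 0.68 was -3.76 within slide 3 but -1.41 against replicate 2. ODC1, the first enzyme of polyamine synthesis, differed by 1.24 ± 0.34, from 0.76, 1.57 and 0.39 at 30 ng/kg to 2.20, 1.86 and 2.38 at 300 ng/kg. The summed signal of the 5 genes, in multiples of the array's 75th percentile, was 2513, 718 and 2309 at 30 ng/kg, 443, 506 and 512 at 300 ng/kg and 712 to 1089 in vehicle. On every array most of this sum is the brightest KLK3 probe, while TGM4 and ODC1 lay on the other side. On the 6 arrays where that probe was saturated, the sums carry the same cap and are not a measure of luminal RNA. In tissue, fewer cells of a type and less RNA per cell cannot be told apart.

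Of 21 basal markers, S100A2 and ITGB4 were tested. S100A2, a calcium-binding protein of basal cells, read -6.10, -5.36 and -6.10 at 30 ng/kg and -3.22, -5.09 and -2.52 at 300 ng/kg. The difference was 2.24 ± 0.57, but -0.34 with normexp. S100A2 had passed the filter on dim probes through the 300 ng/kg group alone, which favoured a higher reading there. ITGB4, the integrin of hemidesmosomes, differed by -0.52 ± 0.24 with a limma p of 0.057. All 4 tested genes of the stratified and hillock epithelium list, of 35, stood higher at an unadjusted p under 0.05. KRT13 and ANXA8 had passed the filter on dim probes through the 300 ng/kg group alone, which favoured a higher reading there. Apart from them, the count rests on ANXA1 and GPX2. KRT13, the keratin of stratified and hillock epithelium, was at the floor in all arrays of 30 ng/kg and read -4.13, -3.40 and -1.20 at 300 ng/kg. That is 4.78-fold higher with dim values raised as for IRX4, and a log2 difference of 0.41 under normexp. ANXA8, an annexin of stratified epithelia, read -4.94, -5.98 and -5.25 at 30 ng/kg and -1.23, -4.05 and -0.37 at 300 ng/kg, a difference of 3.51 ± 0.88, and 1.0 with normexp. In ANXA8, replicate 2 of 300 ng/kg was the lowest of its group, as it was in S100A2 and in both of the following genes. ANXA1, an annexin that dampens inflammation, differed by 1.35 ± 0.34, and GPX2, an epithelial glutathione peroxidase, read -2.22, -2.38 and -1.17 at 30 ng/kg and 0.10, -1.79 and 0.81 at 300 ng/kg, overlapping, with a difference of 1.63 ± 0.62. The summed signal of the 4 genes was 0.827, 1.18 and 1.07 at 30 ng/kg, 3.55, 1.51 and 5.40 at 300 ng/kg and 0.569 to 0.579 in vehicle. In these 4 genes and S100A2 the values at 300 ng/kg spread more between arrays than those at 30 ng/kg. At 30 ng/kg, KRT13 lay at the floor on all arrays and S100A2 on replicates 1 and 3, so their spread there cannot be seen.

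All 4 tested members of the smooth muscle list, of 32, stood lower at an unadjusted p under 0.05. Whether their signal came from smooth muscle was not tested. SGCA, the alpha subunit of the sarcoglycan complex that ties muscle fibres to matrix, read 0.89, 0.30 and 0.39 at 30 ng/kg and -0.59, -0.80 and -0.97 at 300 ng/kg, a difference of -1.31 ± 0.27. TPM2, a tropomyosin of the contractile filaments, read 8.79, 7.87 and 8.33 at 30 ng/kg and 7.25, 7.58 and 6.82 at 300 ng/kg, a difference of -1.11 ± 0.32. The actin cross-linker FLNC differed by -0.68 ± 0.27 and LMOD1, which nucleates actin filaments in smooth muscle, by -0.63 ± 0.28, and relative to the shift of all probes under normexp these 2 were at 0.12 and 0.11. The summed signal of the list was 499, 282 and 370 at 30 ng/kg, 182, 235 and 137 at 300 ng/kg and 262 to 392 in vehicle, and most of it is TPM2, the brightest of the 4 probes. The doses overlapped in LMOD1. LMOD1 had an adjusted p by limma of 0.239. The median difference of the list was -0.90, beside -0.48 for the named genes. Within slide 3 and against replicate 2 of 30 ng/kg alone, 1 of the 4 genes had an unadjusted p under 0.05. PECAM1, the only endothelial marker named and tested, of 17, read 1.33, 1.13 and 1.60 at 30 ng/kg and -0.56, 0.33 and 0.36 at 300 ng/kg, a difference of -1.31 ± 0.29.

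Of the other marker lists, few members were both named and tested. S100A4, of the fibroblast list, differed by 0.61 ± 0.30 and LPL, of the adipocyte list, by -0.29 ± 0.29, both with an unadjusted p above 0.05. XBP1 is a regulator of secretory cells that serves in the B and plasma cell list but is made by other secretory cells too. It read 1.27, 2.03 and 1.12 at 30 ng/kg and 2.76, 2.31 and 2.89 at 300 ng/kg, a difference of 1.18 ± 0.28. IGLL1, the other tested member of that list, lay on the lower side, with a difference of -1.30 ± 0.24. FCER1A is the alpha chain of the IgE receptor of mast cells and basophils. It read -6.10, -5.20 and -4.44 at 30 ng/kg and -2.78, -4.51 and -3.49 at 300 ng/kg. The difference was 1.66 ± 0.51, with overlapping groups, and -0.48 with normexp. FCER1A had passed the filter on dim probes through the 300 ng/kg group alone, which favoured a higher reading there. NCAM1, a neural cell adhesion molecule, differed by -0.92 ± 0.28, and its second probe by -1.54 ± 0.38; LSAMP, an adhesion protein of neurons, differed by 0.03 ± 0.19. NTS, a neuropeptide of the neuroendocrine list, differed by -1.11 ± 0.56. No marker list had more than 5 tested members, and the contribution of these cell types to the other differences was not tested.

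TGF-beta signals through a pair of receptor kinases and SMAD proteins and drives matrix production. Of 35 genes of this list 6 were tested, 4 higher and 2 lower at an unadjusted p under 0.05. Of the binding proteins that hold the ligand in the matrix, LTBP4 read 6.72, 5.55 and 5.99 at 30 ng/kg and 4.85, 4.72 and 3.46 at 300 ng/kg, a difference of -1.74 ± 0.44, and LTBP2 differed by 1.15 ± 0.31, but -0.38 with normexp. The receptor ACVRL1, a kinase of endothelium, differed by -0.72 ± 0.26. SMAD7, the inhibitory SMAD, read -0.61, -0.19 and -0.30 at 30 ng/kg, 1.04, 0.52 and 1.02 at 300 ng/kg and 0.05, -0.23 and 0.49 in vehicle. Its difference of 1.23 ± 0.26 was 1.16 within slide 3 and 1.05 against replicate 2 of 30 ng/kg, so it was of like size against each. TGFBI, a matrix protein named for its induction by TGF-beta, read -0.60, 1.03 and 0.05 at 30 ng/kg and 1.77, 2.31 and 1.37 at 300 ng/kg, a difference of 1.66 ± 0.41, and 0.79 against replicate 2.

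BMPs signal through other SMADs, which induce the ID genes, and are held in check by secreted antagonists. All 8 tested genes of this list, of 25, stood higher at 300 ng/kg, 7 of them at an unadjusted p under 0.05, although GDF10 and GDF5 turned lower with normexp. The median difference was 1.48, beside -0.03 for all probes and -0.48 for the named genes. Of the antagonists, GREM1 read -1.57, -3.37 and -2.52 at 30 ng/kg, 0.66, -1.15 and 2.01 at 300 ng/kg and -2.79, -3.05 and -2.41 in vehicle, and its difference of 2.99 ± 0.73 was 3.02 within slide 3 and 3.88 against replicate 2 of 30 ng/kg. CHRD, chordin, differed by 0.71 ± 0.21 and BAMBI, a decoy receptor without a kinase, by 1.13 ± 0.35. The ID genes encode partners that block the DNA binding of helix-loop-helix factors. ID1 read 2.48, 1.93 and 1.36 at 30 ng/kg and 4.72, 2.55 and 4.51 at 300 ng/kg, a difference of 2.0 ± 0.54. ID3 read 2.0, 1.95 and 2.43 at 30 ng/kg and 3.91, 2.87 and 3.99 at 300 ng/kg, a difference of 1.46 ± 0.36, and ID2 -0.79, -0.39 and -0.04 at 30 ng/kg and 1.34, 0.33 and 1.64 at 300 ng/kg, a difference of 1.51 ± 0.39. In all 3 ID genes and in GREM1 the lowest array of 300 ng/kg was replicate 2, and it still lay above every array of 30 ng/kg. GDF5 differed by 0.26 ± 0.45. Against replicate 2 of 30 ng/kg alone, 5 of the 8 kept an unadjusted p under 0.05.

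Of 42 genes of the WNT list 6 were tested, 4 higher and 2 lower. WNT5A, a ligand of the pathway without beta-catenin that restrains growth of the budding prostate, read -2.10, -2.64 and -1.91 at 30 ng/kg and -0.83, -1.69 and -1.70 at 300 ng/kg, a difference of 0.81 ± 0.32. Its close relative WNT5B read -0.57, -0.86 and -1.22 at 30 ng/kg and -1.95, -2.02 and -1.78 at 300 ng/kg, a difference of -1.03 ± 0.26, on the other side. The ligand WNT6 differed by -0.65 ± 0.27, the receptor FZD1 by 1.09 ± 0.29, the antagonist SFRP1 by 1.38 ± 0.41 and the transcription factor TCF7 by 1.19 ± 0.32, with 1.27 ± 0.32 on its second probe. Receptor, antagonist and transcription factor thus stood higher, and the ligands on both sides. Against replicate 2 of 30 ng/kg alone, 1 of the 4 and 1 of the 2 kept an unadjusted p under 0.05.

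Among 68 developmental regulators 9 were tested, 4 higher and 3 lower at an unadjusted p under 0.05. Beside IRX4, the Iroquois gene IRX1 read -4.92, -5.29 and -5.82 at 30 ng/kg and -2.40, -4.42 and -2.89 at 300 ng/kg, a difference of 2.10 ± 0.49, but -0.24 with normexp, and IRX3 read -3.90, -2.37 and -2.78 at 30 ng/kg and -0.09, -2.49 and -0.26 at 300 ng/kg, a difference of 2.07 ± 0.65. Replicate 2 of 300 ng/kg lay within the range of 30 ng/kg for IRX3, and the groups overlapped. HES1, a target of Notch, differed by 1.54 ± 0.47 with overlapping groups. SIX2 and its partner EYA1, which keep progenitors of the urogenital mesenchyme and kidney undifferentiated, were both lower. SIX2 read 3.51, 3.20 and 2.60 at 30 ng/kg and 1.31, 2.20 and 0.96 at 300 ng/kg, a difference of -1.61 ± 0.39, and EYA1 1.66, 0.96 and 1.85 at 30 ng/kg and -0.15, 0.75 and -0.21 at 300 ng/kg, a difference of -1.36 ± 0.34. LIX1 differed by -1.93 ± 0.46, while HEY1 with a difference of 0.39 ± 0.23 and OSR2 with a difference of -0.28 ± 0.25 had an unadjusted p above 0.05.

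Of 55 collagens and matrix proteins 7 were tested, 4 higher, HAS2 among them, and 2 lower at an unadjusted p under 0.05; HAS2 turned lower with normexp. The chains of type I collagen, the main fibrillar collagen of stroma, both stood higher. COL1A1 read 0.61, 0.54 and -0.07 at 30 ng/kg, 1.63, 0.91 and 2.13 at 300 ng/kg and 0.56, -0.68 and 0.17 in vehicle, a difference between the doses of 1.20 ± 0.41. COL1A2 read 2.23, 2.82 and 2.32 at 30 ng/kg, 3.04, 3.15 and 3.96 at 300 ng/kg and 2.71, 2.61 and 2.57 in vehicle, a difference between the doses of 0.93 ± 0.29. COMP, which helps assemble collagen fibrils, read -4.15, -2.33 and -4.12 at 30 ng/kg and -1.85, -1.75 and -1.57 at 300 ng/kg, a difference of 1.81 ± 0.56, but 0.60 against replicate 2 of 30 ng/kg. COL6A2, of the beaded filaments around cells, read 7.15, 5.90 and 6.42 at 30 ng/kg and 5.09, 5.43 and 4.19 at 300 ng/kg, a difference of -1.59 ± 0.48, and COL22A1, of tissue junctions, differed by -2.16 ± 0.55. COL5A2 differed by -0.14 ± 0.22. The list thus held both type I chains on the higher side and a microfibrillar chain on the lower side.

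Of 44 genes of collagen processing and matrix turnover 7 were tested, 4 higher and 1 lower. PCOLCE, which speeds the removal of the procollagen C-terminal piece, differed by 1.22 ± 0.30, from -0.66, -0.26 and -0.62 at 30 ng/kg to 0.72, 0.24 and 1.16 at 300 ng/kg, while BMP1, the protease that removes it, differed by -2.19 ± 0.57, from 2.53, 2.20 and 2.32 at 30 ng/kg to 0.52, 1.09 and -1.13 at 300 ng/kg, and by -2.62 ± 0.71 on its second probe. ADAMTS2, which removes the N-terminal piece, read -2.83, -2.32 and -2.26 at 30 ng/kg and -0.80, -1.83 and -0.46 at 300 ng/kg, a difference of 1.44 ± 0.37. P4HA2, a collagen prolyl hydroxylase, differed by 1.36 ± 0.40 and SERPINH1, the collagen chaperone, by 0.71 ± 0.26. The gelatinase MMP2, with a difference of 0.63 ± 0.29, and MMP23B, with a difference of 0.55 ± 0.34, had an unadjusted p above 0.05. Against replicate 2 of 30 ng/kg alone none of the 7 had an unadjusted p under 0.05. LAMB2, a laminin chain of basement membrane, read 5.45, 4.72 and 5.61 at 30 ng/kg and 3.97, 4.10 and 3.61 at 300 ng/kg, a difference of -1.37 ± 0.34, and LAMA5 differed by -0.43 ± 0.22.

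**Figure D5:**
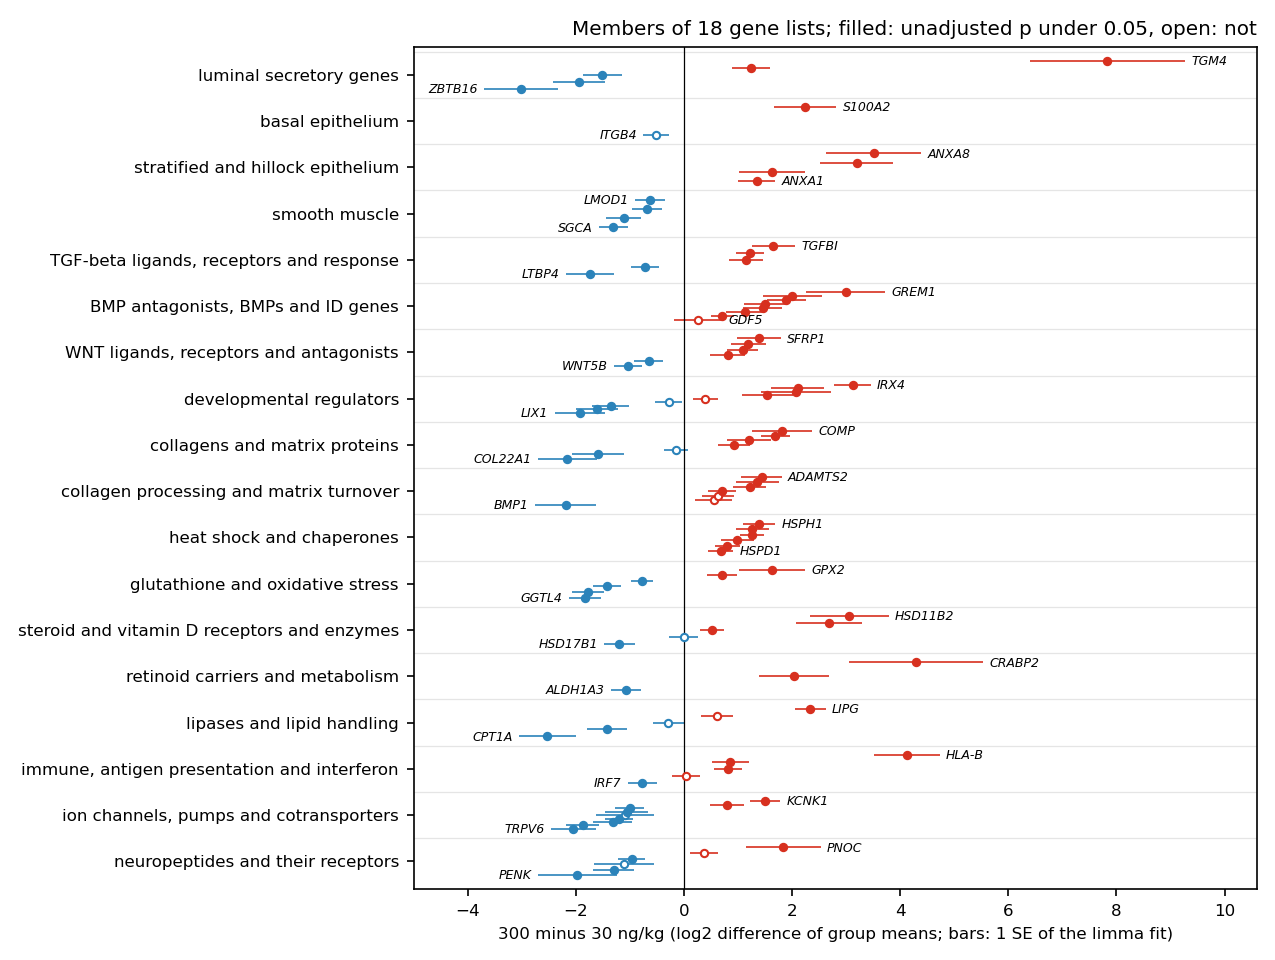
Each point is a tested member, among those reported, of 1 of 18 gene lists, with the log2 difference, 300 minus 30 ng/kg, on the x axis and bars of 1 SE of the limma fit (n = 3 per group); filled points had an unadjusted p under 0.05. All heat shock and BMP members lie above 0 and all smooth muscle members below it, while most other lists hold members on both sides; 18 of the genes and probes named in the text, LIPG, HAS2, GDF10 and GDF5 among them, changed sign with normexp.

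All 6 tested chaperones, of 34, stood higher at an unadjusted p under 0.05, with no overlap between the doses in any of them. Among all named genes, 32.5% were higher at that threshold and the groups did not overlap for 79.4%. These proteins fold or hold other proteins and are induced by heat and other stress. DNAJA1, a co-chaperone of HSP70, read 2.39, 2.55 and 2.27 at 30 ng/kg, 3.32, 3.80 and 3.87 at 300 ng/kg and 2.43, 2.34 and 2.21 in vehicle, a difference between the doses of 1.26 ± 0.22. HSPA1A, the inducible HSP70, read 4.34, 4.25 and 4.02 at 30 ng/kg and 5.26, 5.69 and 5.45 at 300 ng/kg, a difference of 1.26 ± 0.31, and it has the near-identical copy HSPA1B. HSPH1, an exchange factor of HSP70, read 1.65, 1.98 and 1.36 at 30 ng/kg and 2.50, 3.44 and 3.23 at 300 ng/kg, a difference of 1.40 ± 0.29. BAG3, HSPD1 of mitochondria and DNAJB9 of the endoplasmic reticulum differed by 0.99 ± 0.31, 0.68 ± 0.23 and 0.80 ± 0.23. In each of the 6 the lowest array of 300 ng/kg was replicate 1, unlike S100A2, ANXA8, ANXA1, GPX2, GREM1 and the ID genes, in which it was replicate 2. The median difference of the 6 chaperones was 1.13, beside -0.48 for the named genes. All 6 kept an unadjusted p under 0.05 within slide 3, and 3 did against replicate 2 of 30 ng/kg alone. Of 27 immediate early genes 2 were tested. IER2 read 2.96, 2.02 and 2.05 at 30 ng/kg and 0.58, 0.91 and -0.65 at 300 ng/kg, a difference of -2.06 ± 0.46, and NR4A2 differed by 0.03 ± 0.29.

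Of 39 genes of glutathione and oxidative stress 6 were tested, 2 higher and 4 lower. GGT1, the surface enzyme that breaks down glutathione outside the cell, read 6.05, 5.33 and 5.96 at 30 ng/kg, 4.23, 3.87 and 3.91 at 300 ng/kg and 4.99, 5.68 and 4.84 in vehicle, a difference between the doses of -1.78 ± 0.30, with -1.83 ± 0.27 on its second probe. GGTL4 belongs to the same family of near-identical copies and read 5.60, 4.80 and 5.56 at 30 ng/kg and 3.55, 3.41 and 3.49 at 300 ng/kg, a difference of -1.83 ± 0.29; their probes cannot be taken as separate genes. GSTT1 and GSTM1, which couple glutathione to foreign compounds, both stood lower. GSTT1 read 1.37, 1.36 and 1.71 at 30 ng/kg and 0.27, 0.02 and -0.12 at 300 ng/kg, a difference of -1.42 ± 0.26, and GSTM1 -2.0, -2.01 and -2.12 at 30 ng/kg and -2.92, -2.72 and -2.80 at 300 ng/kg, a difference of -0.77 ± 0.20. GSTO1 differed by 0.70 ± 0.28, and the second member on the higher side was GPX2, so the transferases lay on both sides. The aryl hydrocarbon receptor list, of 31, had 3 tested members. ALDH1A3, which makes retinoic acid, read 3.33, 3.17 and 3.0 at 30 ng/kg and 2.05, 2.07 and 2.19 at 300 ng/kg, a difference of -1.07 ± 0.28. SLC7A5, an amino acid transporter, differed by 1.23 ± 0.34, but by 0.07 ± 0.27 on a dimmer probe of the same transcript, and RELB, a partner of the receptor, by 0.04 ± 0.26. The classical targets CYP1A1, CYP1B1 and AHRR were not analysed here.

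Of 30 retinoid genes 3 were tested, ALDH1A3 lower and CRABP2 and RBP4 higher at an unadjusted p under 0.05, and both carriers stood far apart between the animals of 300 ng/kg. CRABP2, the protein that delivers retinoic acid to its nuclear receptors, read -4.35, -4.82 and -3.50 at 30 ng/kg, 2.17, -3.47 and 1.52 at 300 ng/kg and -4.10, -4.68 and -3.95 in vehicle. The difference of 4.29 ± 1.24 rested on replicates 1 and 3, since replicate 2 lay just above the 30 ng/kg group. RBP4, the retinol carrier, read -1.88, -1.45 and -2.85 at 30 ng/kg and 0.71, -1.40 and 0.62 at 300 ng/kg, a difference of 2.04 ± 0.64, with the same array low. Of 39 genes of steroid and vitamin D signalling 5 were tested, 3 higher and 1 lower. VDR, the vitamin D receptor, read -5.36, -3.98 and -4.42 at 30 ng/kg and -0.92, -3.39 and -1.40 at 300 ng/kg, a difference of 2.68 ± 0.61, but 0.62 with normexp. HSD11B2, which inactivates cortisol, read -1.48, -0.34 and -1.42 at 30 ng/kg and 2.61, 0.30 and 3.03 at 300 ng/kg, a difference of 3.06 ± 0.73. VDR and HSD11B2 too were lowest in replicate 2 among the 300 ng/kg arrays, and without that array HSD11B2, VDR and CRABP2 differed by 3.90, 3.43 and 6.06 with adjusted p of 0.0241, 0.014 and 0.00278. Without replicate 2 of 30 ng/kg their adjusted p were 0.0514, 0.0503 and 0.119, none under 0.05. HSD17B1, which activates estrone to estradiol, read 3.85, 3.36 and 3.98 at 30 ng/kg and 2.58, 2.92 and 2.11 at 300 ng/kg, a difference of -1.19 ± 0.28, and the glucocorticoid receptor NR3C1 differed by 0.52 ± 0.23. STS differed by -0.0073 ± 0.26. Of 22 genes of the IGF axis 2 were tested: IRS2, an adaptor of insulin and IGF receptors, differed by -1.04 ± 0.30 and STC2, which blocks cleavage of IGF binding proteins, by 1.39 ± 0.40.

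Of 47 genes of lipid handling 5 were tested, 1 higher, LIPG, which normexp turned, and 2 lower. CPT1A, which brings fatty acids into mitochondria for oxidation, read -2.04, -3.58 and -2.30 at 30 ng/kg and -5.04, -4.80 and -5.66 at 300 ng/kg, a difference of -2.53 ± 0.53. ACACB, whose product restrains CPT1A, read -1.84, -3.16 and -2.28 at 30 ng/kg and -3.99, -3.41 and -4.14 at 300 ng/kg, a difference of -1.43 ± 0.37. For both, replicate 2 was the lowest array of 30 ng/kg, and against it alone they differed by -1.58 and -0.69. OSBPL3 differed by 0.61 ± 0.29 with an unadjusted p above 0.05. Of 59 immune genes 6 were tested, 3 higher and 1 lower. Beside HLA-B, the lysosomal protease CTSS differed by 0.81 ± 0.25, but -0.95 with normexp, and UBD, a ubiquitin-like protein induced by interferon, by 0.86 ± 0.34. CTSS had passed the filter on dim probes through the 300 ng/kg group alone, which favoured its place among the 3 higher. IRF7, the master factor of type I interferon, read -1.31, -0.77 and -0.84 at 30 ng/kg and -1.72, -1.88 and -1.64 at 300 ng/kg, a difference of -0.77 ± 0.27.

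Of 97 ion channels, pumps and cotransporters 10 were tested, 3 higher and 6 lower at an unadjusted p under 0.05. TRPV6, an epithelial calcium channel raised in prostate cancer, read 3.26, 2.93 and 4.22 at 30 ng/kg, 1.56, 0.75 and 1.97 at 300 ng/kg and 2.75, 2.97 and 2.38 in vehicle, a difference between the doses of -2.04 ± 0.41. CACNA1H, a T-type calcium channel, differed by -1.32 ± 0.36, and TRPC6 by -1.06 ± 0.40 with overlapping groups. SLC12A3, a sodium chloride cotransporter, differed by -1.20 ± 0.26 and KCNH8 by -1.0 ± 0.27. SLC12A2, a sodium, potassium and chloride cotransporter, was higher with a difference of 0.79 ± 0.32, but -0.74 with normexp. ATP2B3, a calcium pump, differed by -1.09 ± 0.54. Of 55 neuropeptides and receptors 6 were tested, 1 higher and 3 lower. PENK, the precursor of enkephalins, read 3.46, 6.09 and 4.62 at 30 ng/kg and 2.91, 3.81 and 1.53 at 300 ng/kg, a difference of -1.97 ± 0.73, with vehicle at 5.18, 6.37 and 5.73. PNOC, the precursor of nociceptin, read 0.18, 0.75 and -1.92 at 30 ng/kg and 1.05, 0.80 and 2.66 at 300 ng/kg, a difference of 1.83 ± 0.69, and 3.43 within slide 3 but 0.76 against replicate 2 of 30 ng/kg. The natriuretic peptide receptor NPR1 differed by -0.96 ± 0.25 and the tachykinin receptor TACR2, which contracts smooth muscle, by -1.30 ± 0.37. ADCYAP1 was not well above background on any array of 30 ng/kg and had an unadjusted p of 0.178. The only proliferation gene named and tested, CCNE1, which drives entry into DNA replication, differed by 0.78 ± 0.27, and by -0.015 with normexp.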

How the data were processed

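The series holds 9 1-colour Agilent arrays of prostate RNA, and the comparison used the 3 arrays each of 30 and 300 ng/kg TCDD, with the 3 vehicle arrays in the same fit. Per the file headers, Feature Extraction 9.5.1.1 (9.5 per the submitters' processing notes) subtracted background and gave a processed intensity per spot. Intensities were averaged over the 2 spots of a probe, without outlier spots, divided by the array's 75th percentile, floored at 5 units of the dimmest array (-6.10) and set on the log2 scale. Probes had to be well above background throughout 1 of the groups or more (15160 were, 5057 were not) and were tested with limma 3.58.1 in R 4.3.3 (lmFit, eBayes, 2-sided, Benjamini-Hochberg over all of them). Residual degrees of freedom were 6, and the median residual SD was 0.400 log2 units. Each array is 1 offspring, and the number of arrays limits the precision.

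Symbols came from the authors' deposited table of 1502 probes, which holds fold ratios and log2 group means before and after a normalization whose method the header does not name; the header gives its criteria as p up to 0.05 in a 1-way analysis of variance with a change of 1.5-fold or more from control. Of its probes 1153 had a symbol, and 870 of 1120 symbols were found in the reference list. Its log2 difference between the doses was within 0.01 of the fitted one for 1278 of 1502 probes. A further 9 columns of that table were not used. A gene with several probes is its brightest. The genes named were the 15 of smallest p per side, all tested list members and the 2 unnamed probes of smallest p per side. Some genes are not reported here, although they stay in the fit and in the counts. The members and lists were chosen with earlier results of these data known.

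Alternatives were normexp (median signals, offset 50), quantile and median scaling, other filters and floors, slide and replicate blocks, array weights, brightness as a covariate and left-out arrays. The comparison with replicate 2 of 30 ng/kg alone and the other probes of an accession were added after seeing the data. The fit was tested on simulated data.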

Additional observations from a re-analysis of the deposited data

How the results depend on the processing

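Of 15160 probes, 0 had an adjusted p under 0.05 in the limma fit as reported, and leaving out 1 array in turn gave 0 to 774. Other settings gave 3 with median scaling, 2 with slide as a fixed block, 1 with the replicate block, 1 without vehicle replicate 1 and 2951 with array weights, and 1629 probes had an unadjusted p under 0.05 with a fold of at least 2. The count at an unadjusted p under 0.05, 3130, was 5950 with array weights, 528 with brightness as a covariate and 430 against replicate 2 of 30 ng/kg alone, and 1592 to 4629 with 1 array left out (1592 without replicate 1 of 30 ng/kg, 1718 without its replicate 3 and 1618 without replicate 3 of 300 ng/kg). The count of probes without overlap, 3884, was 10881 for the arrays of slide 3, 7408 against replicate 2 of 30 ng/kg alone, and 4450 to 8241 with 1 array left out, which asks for separation of fewer arrays. The 100 list members at an unadjusted p under 0.05 became 64 on slide 3, 44 with brightness as a covariate, 43 against replicate 2 of 30 ng/kg alone and 85 to 100 with 1 array left out. Between the 2 doses, the deviations of same-numbered arrays from their group means correlated at 0.10, 0.022 and -0.256 for replicates 1, 2 and 3. The numbers of the labels were not treated as pairs in the reported fit. Vehicle was not part of this check, which does not address the likeness of the arrays numbered 2. The replicate block gave 3262 probes and 99 list members at an unadjusted p under 0.05. The sign of single genes changed as follows, in log2 units of 300 minus 30 ng/kg, and the cause was not tested. With normexp the values were LIPG -0.41, HAS2 -0.79, GDF10 -0.54, S100A2 -0.34, FCER1A -0.48, LSAMP -0.49, LTBP2 -0.38, GDF5 -1.16, COL5A2 0.02, MMP23B -0.85, NR4A2 -0.72, OSBPL3 -1.06, CTSS -0.95, SLC12A2 -0.74, ADCYAP1 -1.50, IRX1 -0.24, CCNE1 -0.015 and AW294925 -0.85; relative to the shift of -0.52 of all probes under that setting, LIPG stood at 0.11, HAS2 at -0.27 and GDF10 at -0.021. With quantile normalization STS 0.17 changed sign; with median scaling COL5A2 0.039 and STS 0.17; with slide as a fixed block or on slide 3 alone MMP23B -0.13; with array weights RELB -0.16 and STS 0.082. With brightness as a covariate the values were S100A4 -0.023, LPL 0.13, LSAMP -0.05, GDF5 -0.54, RELB -0.10, NR4A2 -0.21 and STS 0.33, and against replicate 2 of 30 ng/kg alone LPL 0.026, GDF5 -0.57, COL5A2 0.041, NR4A2 -0.48 and STS 0.24. With 1 array left out in turn, values ran from -0.18 to 0.29 for NR4A2, -0.25 to 0.15 for STS, -0.10 to 0.21 for RELB, -0.23 to 0.028 for COL5A2 and -0.084 to 0.13 for LSAMP; in the reported fit these 5 genes had an unadjusted p above 0.05. The slide as a random block (correlation 0.0726), the trended prior, the filters on dim probes, the floor, the fit on 6 arrays and the authors' deposited means left the sign of every named gene that could be compared as reported. Their counts stayed within 1.5 times those reported. Probes near the floor of -6.10 give no order among themselves, and 3 arrays per dose limit the precision.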

Other observations

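The share of probes with an unadjusted p under 0.05 differed by level. In 4 equal bins of the tested probes ordered by their mean log2 level, 3790 per bin from dimmest to brightest, 7.89%, 13.0%, 11.4% and 17.8% were lower at 300 ng/kg, and 5.83%, 6.46%, 11.2% and 9.0% were higher. No test was made of these shares.

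The place of the vehicle arrays varied among the genes described, and the examples here were chosen after their values were seen. For TGM4, KRT13, ANXA8 and CRABP2 the 3 vehicle values lay below the 3 values of 300 ng/kg. KRT13 and ANXA8 had passed the filter on dim probes through the 300 ng/kg group alone, which favoured this order. PECAM1 read -0.13, 0.29 and -0.03 in vehicle and COL22A1 -1.30, 0.30 and 1.01, so both lay below all arrays of 30 ng/kg and within or near the range of 300 ng/kg. LPL, which releases fatty acids from circulating lipoproteins, read 0.24, -0.15 and 0.46 in vehicle, 2.07, 1.39 and 1.65 at 30 ng/kg and 1.24, 1.89 and 1.13 at 300 ng/kg, so both doses lay above vehicle on every array.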
